A study of Mus musculus with 6 samples.

Results

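Immunoglobulin A (IgA) and its passage across the colon epithelium were described through 10 genes, in 6 RNA-seq libraries of colon epithelial cells from mice with dextran sulphate sodium (DSS) colitis. Each gene was found by its symbol in the deposited gene table, which lists 55487 genes, and all 10 were present. They were Pigr and Fcgrt, which encode receptors that carry antibodies across epithelium, Igha, Ighm, Igkc and Jchain, which encode parts of the secreted antibody, Cd79a and Cd79b, which encode the signalling partners of the B cell receptor, and Mzb1 and Derl3, which encode endoplasmic reticulum proteins of antibody-secreting cells.

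Secretory IgA is made by 2 cell types in turn. Plasma cells of the lamina propria, the tissue beneath the epithelium, secrete IgA as dimers held together by the joining chain, the product of Jchain. The polymeric immunoglobulin receptor, the product of Pigr, binds these polymers on the basal side of epithelial cells and carries them to the lumen, where its outer part is cleaved off and stays with the antibody as the secretory component. Pigr mRNA in an epithelial preparation is thus a product of the epithelial cells themselves, whereas Igha mRNA is a product of plasma cells.

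Of the 6 libraries, 3 were from Nsd2 f/f mice (labelled WT) and 3 from Nsd2 Vil-KO mice (labelled NSD2-FF-VILCRE). Both groups have the C57BL/6J background and carry floxed alleles of Nsd2, the gene of a histone H3 lysine 36 dimethyltransferase, and in Nsd2 Vil-KO mice the Villin promoter drives Cre in intestinal epithelium, so that plasma cells keep the gene. All mice received DSS, a chemical that injures the colon epithelium, which the study's methods describe as 2% for 5 days in mice of 2 months of age. The sources used here do not give the day of sampling for RNA-seq, and no library came from mice without DSS. Epithelial cells were released from colon pieces with EDTA and were not sorted, so RNA of other cell types can be present. The labels do not say that each library came from a separate animal, and p-values measure the spread between these libraries, which may be technical.

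The libraries held between 15439123 and 20350539 counts, with a median of 18209316. Levels are given as CPM, in which counts are divided by the library total and a scaling factor from the trimmed mean of M values, and 14650 genes passed the filter on low counts. The targeted gene was checked first. Nsd2 was at 47.9, 51.2 and 24.6 CPM in Nsd2 f/f replicates 1 to 3 and at 24.2, 10.4 and 20.8 CPM in replicates 1 to 3 of Nsd2 Vil-KO. Its log2 fold change was -1.16 (SE 0.39, unadjusted p = 0.0217, adjusted p = 0.992 by edgeR's quasi-likelihood test). The groups did not overlap, but Nsd2 f/f replicate 3 lay close to the highest Nsd2 Vil-KO library, and the counts cover the whole gene rather than the deleted part alone. A pair of libraries stood apart from the rest: Nsd2 f/f replicate 3 and Nsd2 Vil-KO replicate 2 had mean Spearman correlations with the other libraries of 0.937 and 0.927, against 0.959 to 0.964 for the other 4. These same libraries held 4296 and 3684 counts of Xist, the RNA that female cells transcribe from the inactive X chromosome, against 1 to 5 counts in the others. In Nsd2 f/f replicate 3, mitochondrial genes took 19.6% of the counts, against 5.51% to 9.13% elsewhere. The 12 epithelial markers, among them Epcam and Vil1, summed to between 19580 and 24829 CPM in every library. None of them met the criterion used here for a genotype difference, a fold change over 1.2 with an unadjusted p under 0.05, which 3.29% of all genes tested met. Single markers varied more than the sum. In Nsd2 f/f replicate 3, Car1 was at 1317 CPM, against 112 to 599 CPM elsewhere, and Slc26a3 at 1424 CPM, against 229 to 686 CPM. Muc2 was lowest in the libraries that stood apart, at 3512 CPM in Nsd2 f/f replicate 3 and 2246 CPM in Nsd2 Vil-KO replicate 2, against 4310 to 6857 CPM.

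Pigr was by far the most abundant of the genes. It lies at chr1:130826684-130852249 on the plus strand of GRCm38 and was at 4775, 4740 and 8130 CPM in Nsd2 f/f replicates 1 to 3. In Nsd2 Vil-KO replicates 1 to 3 it was at 5241, 3994 and 5317 CPM. Its mean over the 6 libraries stood above that of 99.95% of the genes tested. The highest library, Nsd2 f/f replicate 3, and the lowest, Nsd2 Vil-KO replicate 2, are those that stood apart, and the other 4 lay between 4740 and 5317 CPM. The groups overlapped. The log2 fold change of Nsd2 Vil-KO over Nsd2 f/f was -0.28 (SE 0.36, 95% interval -1.12 to 0.56, unadjusted p = 0.459, adjusted p = 0.993 by edgeR), and it was 0.16 among the 4 libraries with few Xist counts.

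The bases upstream of the transcription start are shown for Pigr, the epithelial receptor, and for Jchain. Jchain is the plasma cell gene whose product is part of the antibody polymers that the receptor binds. Both were chosen because their levels across the libraries followed unlike courses. A link between these sequences and the levels was not tested. Sequences are the 250 bases before the RefSeq start on GRCm38.p6, at chr1:130826434-130826683 on the plus strand for Pigr and at chr5:88527898-88528147 on the minus strand for Jchain, and capitals mark the letters CACGTG, an E-box that upstream stimulatory factors (Usf1 and Usf2) are known to bind.
Pigr: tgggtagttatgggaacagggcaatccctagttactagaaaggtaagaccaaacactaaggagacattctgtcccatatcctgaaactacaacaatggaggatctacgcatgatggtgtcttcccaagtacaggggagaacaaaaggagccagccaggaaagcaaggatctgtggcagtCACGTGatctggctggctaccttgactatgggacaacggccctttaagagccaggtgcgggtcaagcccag
Jchain: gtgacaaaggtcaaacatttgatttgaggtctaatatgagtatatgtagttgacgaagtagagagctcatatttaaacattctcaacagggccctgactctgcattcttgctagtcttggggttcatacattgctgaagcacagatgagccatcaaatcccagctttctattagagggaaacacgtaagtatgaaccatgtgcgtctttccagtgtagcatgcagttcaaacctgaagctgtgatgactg
The CACGTG of the Pigr sequence begins 71 bases upstream of the start. RefSeq promoters were given for 5 of the 10 genes (Pigr, Jchain, Cd79a, Derl3 and Fcgrt), each of 300 bases with 50 after the start. CACGTG, which reads alike on both strands, was present in those of Pigr and Derl3, and in 7.15% of all 32817 mouse promoters of the table. The letters ATGCAAAT, the octamer of immunoglobulin promoters (in 1.74% of all promoters), were searched on both strands and were in none of the 5. These matches describe letters in a window and say nothing of binding. Usf1 was at 53.7 ± 1.55 CPM in Nsd2 f/f and 50.7 ± 5.47 CPM in Nsd2 Vil-KO libraries (SD, n = 3 each).

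Fcgrt encodes the heavy chain of the neonatal Fc receptor, which carries IgG rather than IgA and pairs with the product of B2m. Fcgrt (chr7:45092990-45103851, minus strand) was at 40.5, 34.4 and 92.4 CPM in Nsd2 f/f replicates 1 to 3 and at 49.1, 82.1 and 26.8 CPM in replicates 1 to 3 of Nsd2 Vil-KO. Its highest levels were in the libraries that stood apart, one of each genotype, and the groups overlapped (log2 fold change -0.08, SE 0.50, adjusted p = 0.999 by edgeR). The sign of that difference changed with the scaling and with the libraries used. An antisense gene, Gm45669, lies within the Fcgrt locus without sharing exon bases. Per Fcgrt count there were between 48.6 and 199 Pigr counts.

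Igha encodes the constant region of the IgA heavy chain (chr12:113254830-113260236, minus strand). It was at 75.6, 230.2 and 10.2 CPM in Nsd2 f/f replicates 1 to 3, and at 324, 30.8 and 128 CPM in replicates 1 to 3 of Nsd2 Vil-KO. The highest library was 31.8 times the lowest, a spread over the 6 libraries larger than that of 98.4% of the genes tested on the log2 scale. Within each genotype the spread was of the same order, 22.6-fold in Nsd2 f/f and 10.5-fold in Nsd2 Vil-KO. The ranges overlapped, and the log2 fold change was 0.61 (SE 1.09, 95% interval -1.97 to 3.19, adjusted p = 0.995 by edgeR). Without Nsd2 Vil-KO replicate 1 the sign turned, to -0.41.

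Jchain and Igkc moved from library to library with Igha. Jchain (chr5:88519809-88527891, minus strand) was at 10.7, 31.2 and 1.70 CPM in Nsd2 f/f and at 42.5, 4.88 and 17.0 CPM in replicates 1 to 3 of Nsd2 Vil-KO. Igkc, the constant region of the kappa light chain (chr6:70726435-70726966, plus strand), was at 45.04, 140 and 8.97 CPM in Nsd2 f/f and at 194.6, 18.4 and 54.7 CPM in replicates 1 to 3 of Nsd2 Vil-KO. For all 3 genes Nsd2 Vil-KO replicate 1 was highest, followed by Nsd2 f/f replicate 2, and Nsd2 f/f replicate 3 was lowest. The log2 fold changes were 0.55 for Jchain (SE 1.01) and 0.46 for Igkc (SE 1.05), with overlapping groups. Their signs also turned without Nsd2 Vil-KO replicate 1, to -0.41 and -0.82, and that of Igkc turned without Nsd2 f/f replicate 3, to -0.05. In RNA from a mixture of cells, fewer plasma cells and less antibody RNA per plasma cell cannot be told apart.

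**Figure D1:**
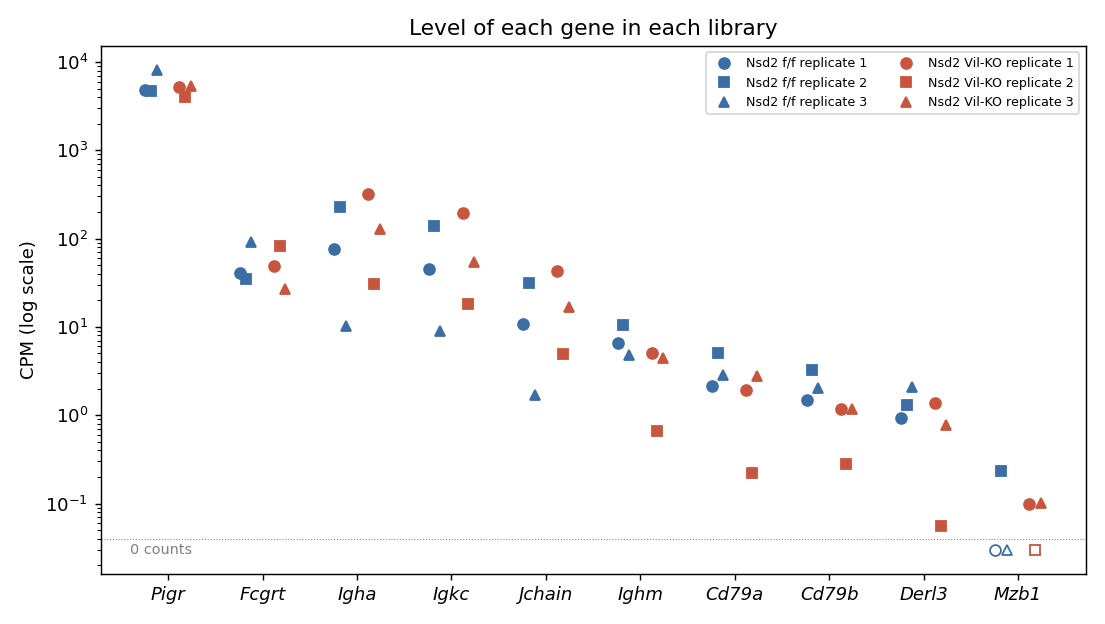
Level of each gene in CPM (log scale) in each of the 6 libraries, with Nsd2 f/f in blue, Nsd2 Vil-KO in red, marker shapes for replicate numbers and open symbols for 0 counts. Pigr lies between 3994 and 8130 CPM, whereas Igha spans 10.2 to 324 CPM, with both genotypes spread over most of that span.

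The contrast between the epithelial receptor and the antibody genes was taken within each library, as log2 CPM of Pigr minus the mean log2 CPM of Igha, Ighm, Igkc, Jchain and Mzb1. It was 9.27, 7.84 and 11.68 in Nsd2 f/f replicates 1 to 3 and 8.06, 10.37 and 9.01 in Nsd2 Vil-KO replicates 1 to 3. The means were 9.60 ± 1.94 in Nsd2 f/f and 9.15 ± 1.16 in Nsd2 Vil-KO (SD, n = 3 each), a difference of -0.45 that was smaller than the spread within either group and was -0.02 among the 4 libraries with few Xist counts. Mzb1, with 0 to 4 counts, enters that mean as a nearly constant term. The difference was -1.19 with Igha alone as the antibody side, -1.10 with Jchain alone and -0.0088 with Derl3 and Cd79a added. Its sign turned without Nsd2 f/f replicate 3, to 0.59, and without Nsd2 Vil-KO replicate 1, to 0.09. Most of the variation came from the antibody side: the SD over the 6 libraries was 0.34 for log2 CPM of Pigr and 1.31 for the mean of the antibody genes. In counts, there were 63.2, 20.6 and 799 Pigr counts per Igha count in Nsd2 f/f replicates 1 to 3, and 16.2, 129.5 and 41.7 in Nsd2 Vil-KO replicates 1 to 3. The extreme library, Nsd2 f/f replicate 3, had both the highest Pigr and the lowest Igha, together with the highest mitochondrial share, and the part of RNA quality in this was not tested.

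**Figure D2:**
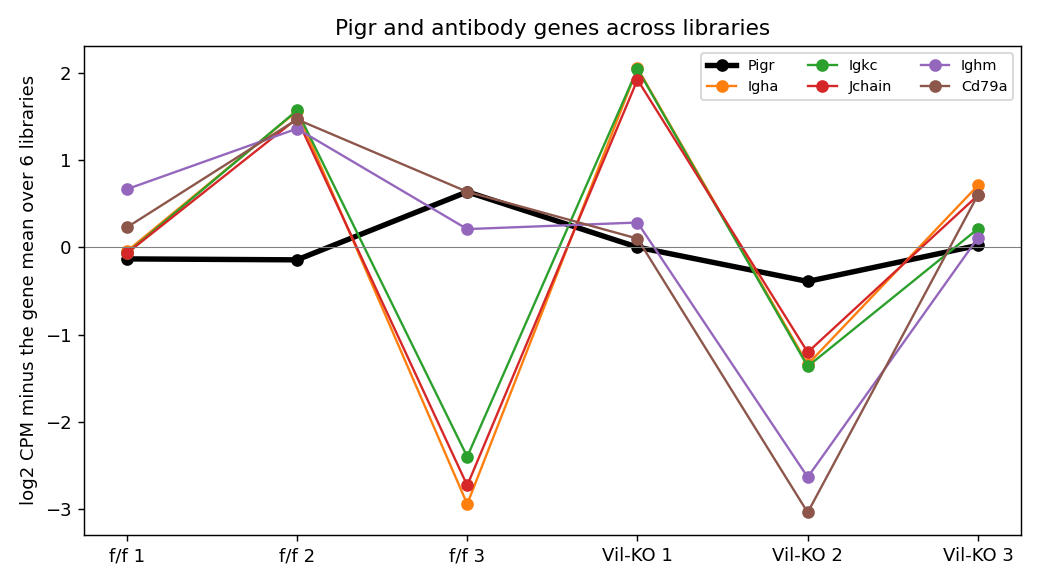
Log2 CPM of Pigr (black) and of 5 antibody and B cell genes in each library, relative to each gene's own mean over the 6 libraries, with lines joining libraries only to guide the eye. Igha, Igkc and Jchain lie almost on one another, Ighm and Cd79a part from them in several libraries, and Pigr, whose SD is 0.34, stays close to its mean.

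The ratios of Jchain and Igkc to Igha held much steadier than the levels of these genes, which was not so for Ighm. There were 0.142, 0.136 and 0.167 Jchain counts per Igha count in Nsd2 f/f replicates 1 to 3 and 0.131, 0.158 and 0.133 in Nsd2 Vil-KO replicates 1 to 3, a 1.27-fold range beside the 31.8-fold range of Igha itself. Igkc per Igha was 0.596, 0.608 and 0.881 in Nsd2 f/f and 0.601, 0.595 and 0.429 in Nsd2 Vil-KO replicates 1 to 3. It lay between 0.595 and 0.608 in 4 libraries, was highest in Nsd2 f/f replicate 3, with 126 Igha and 111 Igkc counts, and lowest in Nsd2 Vil-KO replicate 3. Neither ratio separated the genotypes.

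Ighm, the constant region of the IgM heavy chain, and the B cell receptor partners took another course. Ighm (chr12:113418558-113422730, minus strand) was at 6.54, 10.6 and 4.77 CPM in Nsd2 f/f and at 5.02, 0.666 and 4.44 CPM in replicates 1 to 3 of Nsd2 Vil-KO. Cd79a (chr7:24897381-24902197, plus strand) was at 2.13, 5.02 and 2.83 CPM in Nsd2 f/f and at 1.95, 0.222 and 2.76 CPM in replicates 1 to 3 of Nsd2 Vil-KO. In Nsd2 f/f replicate 3, where Igha was at its lowest, Cd79a was below only Nsd2 f/f replicate 2 and Ighm was above Nsd2 Vil-KO replicates 2 and 3. In Nsd2 Vil-KO replicate 2, Ighm and Cd79a were at their lowest and Igha was above Nsd2 f/f replicate 3 only. Ighm followed Cd79a more closely than Igha, with 1.61 to 3.07 Ighm counts per Cd79a count.

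Cd79b (chr11:106311341-106314762, minus strand) was at 1.49, 3.25 and 2.02 CPM in Nsd2 f/f and at 1.17, 0.277 and 1.17 CPM in replicates 1 to 3 of Nsd2 Vil-KO. It was the only one of the 10 genes whose genotype ranges did not overlap, with Nsd2 Vil-KO lower. Its log2 fold change was -1.34 (SE 0.59, 95% interval -2.74 to 0.06, unadjusted p = 0.0585, adjusted p = 0.992 by edgeR). Among all genes tested, 4.70% were lower in Nsd2 Vil-KO without overlap and 9.90% did not overlap in either direction. The counts behind these levels were small, 5 to 55 per library. For Ighm the log2 fold change was -1.11 (SE 0.67, unadjusted p = 0.142), and for Cd79a it was -1.001 (SE 0.74, unadjusted p = 0.217, adjusted p = 0.992 for both by edgeR). Both differences shrank without Nsd2 Vil-KO replicate 2, to -0.63 for Ighm and -0.50 for Cd79a, and without Nsd2 f/f replicate 2, to -0.74 and -0.56, and that of Cd79a was -1.58 without Nsd2 Vil-KO replicate 3. Among the 4 libraries with few Xist counts, the log2 fold change of Ighm was -0.83, and Ighm met the criterion, as did 10.95% of the genes tested there.

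The 15 B cell markers summed to 13.4, 28.9 and 15.8 CPM in Nsd2 f/f and to 17.0, 4.44 and 19.7 CPM in replicates 1 to 3 of Nsd2 Vil-KO, so that the library lowest in Ighm was also lowest in B cell markers. None of their 11 tested members met the criterion, and Cd22, Cr2, Blk and Fcrla were among those at 0 in Nsd2 Vil-KO replicate 2. The 4 general leukocyte markers, such as Ptprc, summed to 115.9, 60.7 and 21.3 CPM in Nsd2 f/f and to 52.7, 21.2 and 27.8 CPM in replicates 1 to 3 of Nsd2 Vil-KO. The libraries lowest in Igha, Nsd2 f/f replicate 3 and Nsd2 Vil-KO replicate 2, were thus also lowest in leukocyte markers. The sums of other marker lists ran differently. The 9 myeloid markers summed to 985, 265 and 115.2 CPM in Nsd2 f/f and to 316, 1152 and 301 CPM in replicates 1 to 3 of Nsd2 Vil-KO. The 9 T cell markers were lowest in Nsd2 Vil-KO replicate 3, at 11.3 CPM. In Nsd2 Vil-KO replicate 2 the myeloid sum was carried by S100a8 (574 CPM) and S100a9 (405 CPM). Cd68, Lyz2, Csf1r, Itgam, Adgre1 and Tyrobp were instead lowest in Nsd2 f/f replicate 3 and highest in Nsd2 f/f replicate 1. These 6 had negative log2 fold changes, whereas S100a8, S100a9 and Cd14 had positive ones (median of the 9 markers -1.01). However, Nsd2 f/f replicate 1, highest in leukocyte markers and in stromal markers (317 CPM over 8 genes, against 12.8 to 87.0 CPM elsewhere), was below 3 other libraries in Igha. All 4 leukocyte markers had negative log2 fold changes (median -0.99), as had all 7 tested stromal markers (median -1.35), of which Pecam1, of endothelial cells, met the criterion (log2 fold change -1.33, SE 0.55, unadjusted p = 0.0462, adjusted p = 0.992 by edgeR). These lie in the same direction as Ighm, Cd79a and Cd79b, and the part of other cell types in the antibody and B cell levels was not tested.

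Set against each other, the heavy chains of IgA and IgM did separate the genotypes. There were 11.6, 21.8 and 2.14 Igha counts per Ighm count in Nsd2 f/f replicates 1 to 3 and 64.5, 46.3 and 28.7 in Nsd2 Vil-KO replicates 1 to 3, without overlap. Igha per Cd79a was 35.5, 45.8 and 3.60 in Nsd2 f/f against 166, 139 and 46.3 in Nsd2 Vil-KO, which also did not overlap, although the nearest libraries were almost equal. Over the genes with a count in every library, the ratio of Igha to the gene was higher in Nsd2 Vil-KO without overlap for 1.02% of 14364 genes. Over the genes tested, the ratio of the gene to Ighm was higher without overlap for 33.6%, so that on the Ighm side a separation of this kind was common. These ratios were picked out after the values were seen, and with 3 libraries against 3 an exact permutation test cannot give a p under 0.1.

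**Figure D3:**
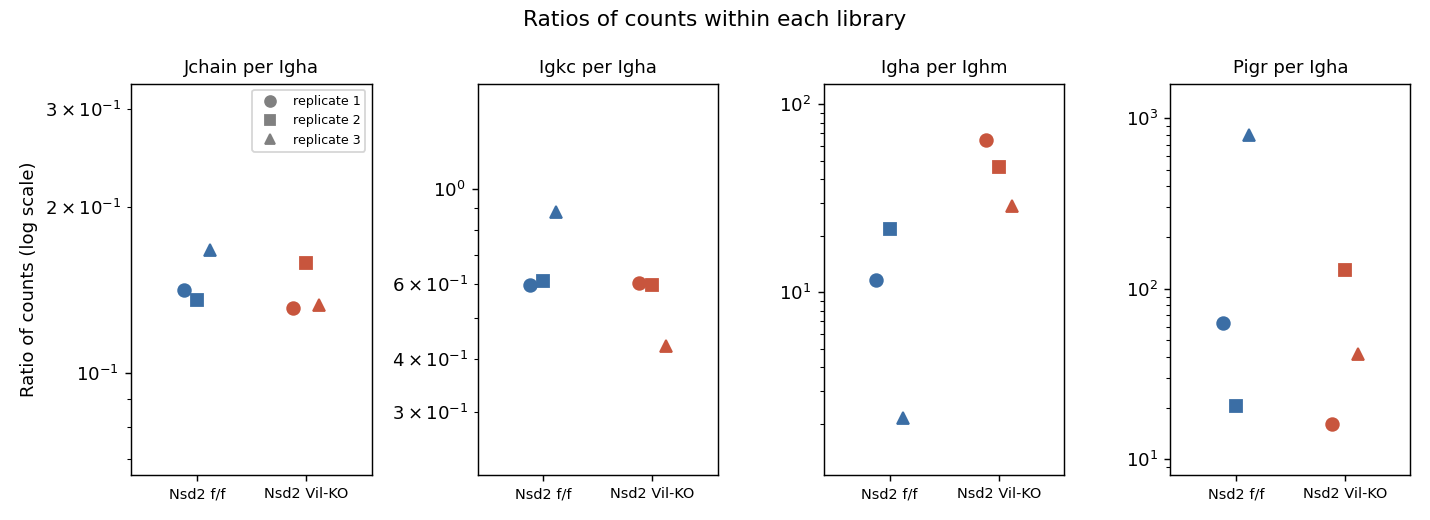
Ratios of counts within each library (log scales, 1 panel for each ratio, blue Nsd2 f/f and red Nsd2 Vil-KO, shapes for replicate numbers). Jchain per Igha and Igkc per Igha overlap between genotypes, Igha per Ighm lies at 2.14 to 21.8 in Nsd2 f/f and 28.7 to 64.5 in Nsd2 Vil-KO, and Pigr per Igha spans 16.2 to 799 with overlap.

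The same separation is seen in the makeup of the heavy chain transcripts. IgA took most of the counts of heavy chain constant genes in each library: 84.1%, 89.9% and 55.3% in Nsd2 f/f replicates 1 to 3 and 92.2%, 79.5% and 91.4% in Nsd2 Vil-KO replicates 1 to 3. IgM and IgD together (Ighm and Ighd, the receptors of naive B cells) took 8.21%, 5.51% and 43.4% in Nsd2 f/f. In Nsd2 Vil-KO they took 2.06%, 2.003% and 4.43%. The latter shares did not overlap (exact permutation test, two-sided p = 0.1, the smallest that 3 against 3 allows), but they rest on the Ighm counts already compared. The exact binomial 95% intervals of the nearest libraries, 4.85% to 6.23% in Nsd2 f/f replicate 2 and 3.69% to 5.27% in Nsd2 Vil-KO replicate 3, overlapped.

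The outlying 43.4% of Nsd2 f/f replicate 3 came from 99 of 228 heavy chain counts (95% interval 36.9% to 50.1%). IgG subclasses took 7.66%, 4.64% and 1.32% in Nsd2 f/f and 5.74%, 18.5% and 4.21% in Nsd2 Vil-KO replicates 1 to 3, with overlap (exact permutation p = 0.5). Most IgG counts were of Ighg2b and Ighg2c, and Ighe, the heavy chain of IgE, had 0 counts in all 6 libraries. Kappa took 96.5% to 100% of the light chain constant counts. Reads carry no molecular identifiers, so that these intervals cover counting error alone.

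**Figure D4:**
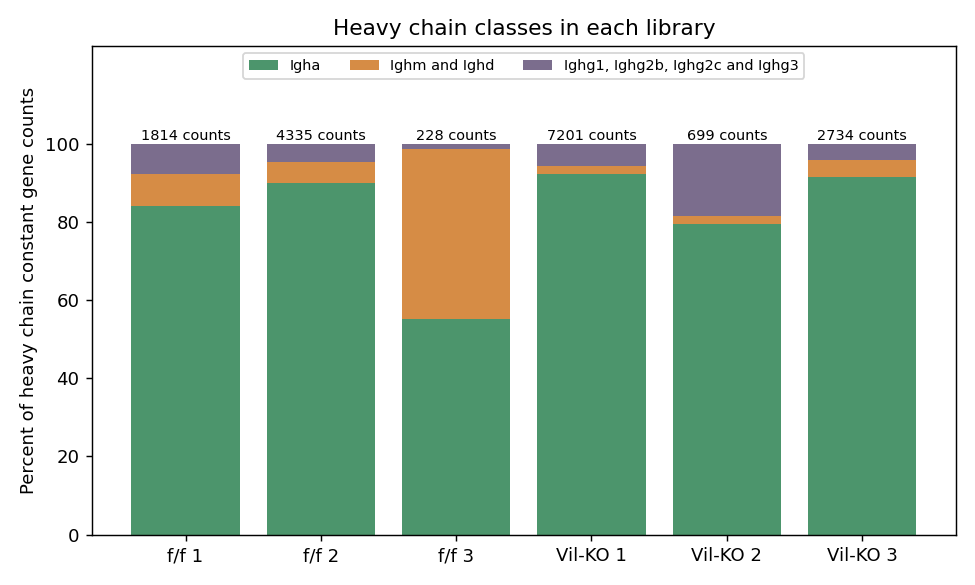
Percent of heavy chain constant gene counts from Igha, from Ighm and Ighd, and from 4 IgG genes in each library, as stacked bars from 0 with the number of counts above each bar. Igha makes up 79.5% to 92.2% in 5 libraries and 55.3% in Nsd2 f/f replicate 3, which holds 228 counts.

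Immunoglobulin genes and Jchain together took 0.0181%, 0.0522% and 0.00264% of all counts in Nsd2 f/f and 0.0749%, 0.00768% and 0.0264% in Nsd2 Vil-KO replicates 1 to 3. The groups overlapped (exact permutation p = 0.6). Of the heavy chain variable genes, Ighv1-81 held the largest share in each of the 5 libraries with at least 100 such counts, with 14.3% to 25.6% of them (mean 19.3% ± 4.56, SD). Nsd2 f/f replicate 3 had 10 such counts, too few for a leading gene. Some variable genes are near-identical copies whose reads the counting could have divided among them, so the shares are uncertain.

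Derl3 and Mzb1, the endoplasmic reticulum genes of antibody-secreting cells, had few counts, and only Derl3 could be tested. Derl3, which encodes a protein of the degradation route for misfolded secretory proteins (chr10:75893413-75895941, plus strand), was at 0.941, 1.3 and 2.10 CPM in Nsd2 f/f and at 1.37, 0.0555 and 0.766 CPM in replicates 1 to 3 of Nsd2 Vil-KO. The lowest value came from 1 count and the others from 15 to 28. Its highest level was in Nsd2 f/f replicate 3, where Igha was lowest, and the log2 fold change was -0.92 (SE 0.78, adjusted p = 0.992 by edgeR). It was -0.39 without Nsd2 Vil-KO replicate 2, -1.73 without Nsd2 Vil-KO replicate 1 and -0.57 without Nsd2 f/f replicate 3.

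Mzb1 encodes a chaperone partner that helps to assemble antibody. It had 0, 4 and 0 counts in Nsd2 f/f and 2, 0 and 2 counts in Nsd2 Vil-KO replicates 1 to 3, too few to be tested, and 3 counts corresponded to between 0.146 and 0.242 CPM. Mzb1 shares 695 exon bases with another gene on its strand, SPATA24, and how the counting treated reads there is not given in the sources used here. The absence of a level for Mzb1 beside 126 to 6640 Igha counts is therefore a statement about these counts only.

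Per kilobase of exon, the scale on which genes can be compared, the mean over 6 libraries was 1333 CPM for Pigr, 145 for Igkc, 49.9 for Igha, 25.8 for Fcgrt, 7.14 for Jchain, 2.83 for Ighm, 1.71 for Cd79a, 1.09 for Cd79b, 0.546 for Derl3 and 0.0598 for Mzb1. Pigr exceeded Igkc, and Igkc exceeded Igha, in each of the 6 libraries. The neighbours Igha and Fcgrt changed places between libraries, since Fcgrt per kilobase was above Igha in Nsd2 f/f replicate 3 and Nsd2 Vil-KO replicate 2. Jchain and Ighm likewise changed places in Nsd2 f/f replicate 3 and Cd79a and Cd79b in Nsd2 Vil-KO replicate 2, whereas Derl3 lay below Cd79b and Mzb1 below Derl3 in each library.

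Asked across all genes, the question was whether loss of epithelial Nsd2 went with a difference in any of these mRNAs. The criterion was met by 482 of 14650 genes (3.29%; 241 or 1.65% higher and 241 or 1.65% lower in Nsd2 Vil-KO) and by 0 of the 9 genes of the list that were tested. At an adjusted p under 0.05, edgeR called 0 genes (0.0%), 482 had an unadjusted p under 0.05, and DESeq2 called 4 genes, none of them on the list. Log2 fold changes were positive for 3 of the 9 (Igha, Jchain and Igkc) and negative for 6, with a median of -0.28 beside 0.0012 over all genes tested. Among the 4 libraries with few Xist counts, the log2 fold changes were 0.58 for Igha, 0.53 for Jchain, 0.45 for Igkc, -0.56 for Cd79a, -0.96 for Cd79b and -0.04 for Derl3, so that the difference in Derl3 rested on the libraries that stood apart. The intervals of Igha, Jchain and Igkc spanned more than 4 log2 units, so for these genes even a large difference between genotypes was not detectable.

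**Figure D5:**
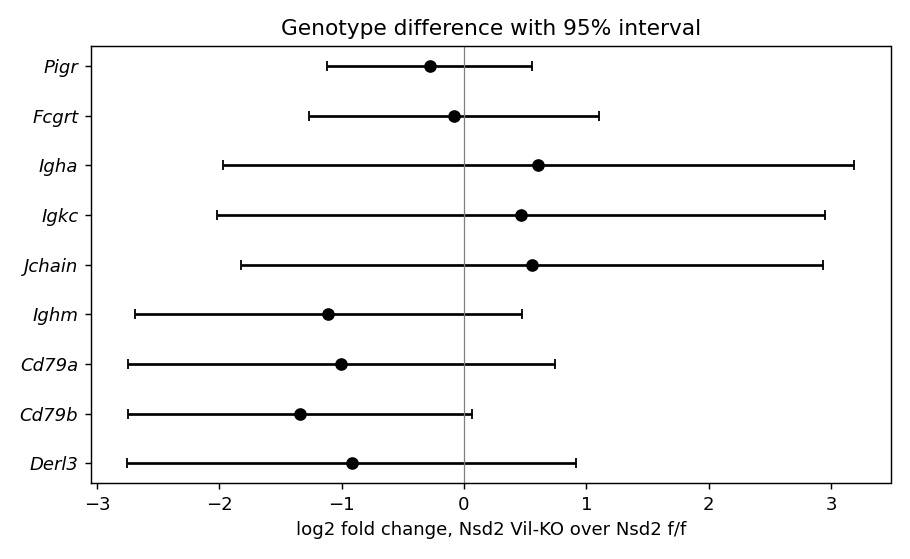
Log2 fold change of Nsd2 Vil-KO over Nsd2 f/f with its 95% interval for the 9 tested genes (edgeR, 3 libraries a group). Each interval includes 0, the narrowest being that of Pigr (-1.12 to 0.56) and the widest that of Igha (-1.97 to 3.19).

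Genes of the pathway were counted by list against the same 3.29%. The lists hold 9 of the 10 genes already described, so that their counts are not separate from those above: Igha, Ighm, Igkc and Jchain are among the antibody genes, Derl3 and Mzb1 in the plasma cell program, Cd79a and Cd79b among the B cell genes and Fcgrt among the Fc receptors. Of 13 antibody genes 8 were tested and 0 met the criterion (median log2 fold change 0.51). Ighg2b and Ighg2c were at 0.84 each (SE 0.84 and 1.01) and Ighd at -0.87 (SE 0.86). Of 20 genes of the plasma cell program 15 were tested and 0 met the criterion (median -0.03). Several of these are also expressed by epithelium, as are the plasma cell factor Xbp1, at 325 ± 56.0 CPM in Nsd2 f/f and 461 ± 114 CPM in Nsd2 Vil-KO, and Sdc1, the plasma cell surface proteoglycan, at 190 ± 22.4 and 300 ± 139 CPM (SD, n = 3 each). Sdc1 met the criterion in 5 of the 18 alternative settings and Xbp1 in 1. Some genes of that list were at low levels. Slamf7 reached 3.57 CPM in Nsd2 f/f replicate 1, Pou2af1 2.42 CPM and Tnfrsf13b 1.68 CPM at most, whereas Irf4 was at 0.111 to 0.975 CPM, Tnfrsf17, the receptor BCMA, had a level above 0 in 2 libraries, and Prg2 was at 0 in all 6.

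Of 16 B cell genes 12 were tested and 0 met the criterion (median -0.42). Cd74, the invariant chain, which inflamed epithelium also makes, was at 472, 499 and 26.9 CPM in Nsd2 f/f and 686, 576 and 535 CPM in replicates 1 to 3 of Nsd2 Vil-KO, without overlap but with a log2 fold change of 0.85 (SE 0.85). The signals that draw, switch or maintain IgA plasma cells comprised 18 genes, of which 13 were tested and 1 met the criterion (median -0.12). This was Tgfbr1, a receptor chain of TGF-beta, the cytokine of IgA class switching, which in these cells is also an epithelial receptor. Tgfbr1 was at 20.7, 21.7 and 18.9 CPM in Nsd2 f/f and at 9.02, 13.5 and 11.95 CPM in replicates 1 to 3 of Nsd2 Vil-KO, without overlap, with a log2 fold change of -0.83 (SE 0.23, unadjusted p = 0.00901, adjusted p = 0.992 by edgeR). It met the criterion in all 19 settings that were run. Ccl28, the colon chemokine for IgA plasma cells, was at 197 ± 92.8 CPM in Nsd2 f/f and 181 ± 23.3 CPM in Nsd2 Vil-KO, and Tnfsf13, which encodes the survival factor APRIL, was at 15.04 ± 4.25 and 10.8 ± 0.710 CPM (SD, n = 3 each).

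On the epithelial side, 21 of 22 receptors and factors known to induce Pigr were tested and 0 met the criterion (median 0.15). The interleukin 17 receptor chain Il17ra was at 25.3 ± 5.87 CPM in Nsd2 f/f and 26.3 ± 3.30 CPM in Nsd2 Vil-KO, and the interferon gamma receptor chain Ifngr1 at 317 ± 95.6 and 358 ± 65.4 CPM. The tumour necrosis factor receptor Tnfrsf1a came nearest to the criterion, at 96.6 ± 22.8 and 147 ± 40.1 CPM (log2 fold change 0.61, SE 0.28, unadjusted p = 0.063 by edgeR), and met it in 3 alternative settings. All 22 genes of vesicle transport and transcytosis were tested and 0 met the criterion (median 0.04). Among them Rab11a and Rab25, small GTPases of the recycling endosome, were at 127 ± 8.08 and 217 ± 18.2 CPM in Nsd2 f/f and 131 ± 28.0 and 239 ± 59.2 CPM in Nsd2 Vil-KO (SD, n = 3 each).

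Of 11 Fc and IgA receptor genes, Fcgrt among them, 11 were tested and 0 met the criterion (median -0.34). B2m, the partner chain of Fcgrt, was at 1571 ± 812 CPM in Nsd2 f/f and 1278 ± 392 CPM in Nsd2 Vil-KO, and B4galt1, an enzyme that has been described as an IgA receptor, was at 231 ± 52.3 and 310 ± 68.3 CPM and met the criterion in 5 of the 18 alternative settings. The Fc receptors of myeloid cells were less even. Fcgr3 was at 36.8, 6.68 and 0.323 CPM in Nsd2 f/f and at 4.29, 2.66 and 1.58 CPM in replicates 1 to 3 of Nsd2 Vil-KO (log2 fold change -2.37, SE 1.21, unadjusted p = 0.090 by edgeR). Its highest library, Nsd2 f/f replicate 1, was the one with the highest leukocyte markers, whose part in this was not tested. With DESeq2 Fcgr3 met the criterion, and without Nsd2 f/f replicate 3 it did so together with Fcgr2b, Fcgr4 and Fcer1g.

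Genes with the most similar course over the 6 libraries were listed by Pearson's r of log2 CPM. This is a description over 6 libraries that differed in depth and mitochondrial share, which all genes of a library have in common. For Pigr, of 12015 protein-coding genes averaging 1 CPM or more, these were Gstm3 (r = 0.995), Dhrs7b (0.992), Mrpl34 (0.992), Tradd (0.990) and 2010300C02Rik (0.989). All 5 were highest in Nsd2 f/f replicate 3 and lowest in Nsd2 Vil-KO replicate 2, as Pigr was. For Igha, of 12016 genes, Jchain came first (r above 0.999), followed by Tedc2 (0.994), Ppp1r8 (0.993), Zcchc10 (0.991) and Plekha7 (0.991). Apart from Jchain, which varied 25.0-fold, these varied far less than Igha: Tedc2 was between 4.52 and 8.21 CPM, Ppp1r8 between 24.1 and 37.8 CPM, Zcchc10 between 4.36 and 8.73 CPM and Plekha7 between 70.4 and 104.7 CPM.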

How the data were processed

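The authors deposited raw counts of reads per Ensembl gene, not normalised, in 1 column per library; all 6 columns were used and 0 were left out. According to the methods, paired-end polyA libraries were trimmed with Cutadapt and Trimmomatic and aligned with HISAT2; the processing notes give HISAT2 and the build mm10. The counting program and its strand setting are not given in the sources used here, and the library kit in the labels (TruSeq) is not that of the methods (NEBNext). Groups were taken from the sample titles.

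From the deposited counts, CPM with TMM factors, log2 CPM (prior count 2) and fold changes were computed with edgeR 4.0.16 in R 4.3.3 (filterByExpr, robust quasi-likelihood test, Benjamini-Hochberg adjustment over 14650 genes; biological coefficient of variation 41.25%). The methods name Ballgown on FPKM, which needs values not used here, so a count test took its place. The criterion takes the fold change of 1.2 from the study's results, which name a p-value under 0.05 without saying whether it was adjusted; the study's methods name an adjusted p-value, and counts at an adjusted p under 0.05 are given as well. Exact permutation tests over samples were two-sided, on log2(CPM + 1) for genes and on the percentage itself for shares. Binomial intervals were exact (Clopper-Pearson, 95%). Coordinates and exon lengths came from GENCODE M21 on GRCm38, the authors' build. Promoter sequences came from RefSeq.

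The genes, lists and ratios were chosen with earlier results of these data known. Named genes are the 10 genes, list genes that met the criterion or whose role is needed to read a member, and the 5 closest courses for Pigr and Igha. Cd74, Fcgr3 and Tnfrsf1a were named after their values were seen. So were other list genes and single cell type markers, among them B4galt1, Car1, Slc26a3, Muc2, S100a8 and S100a9. The test was tested on simulated data made from these libraries: of 194 genes changed by 2 log2 units, it found 54.6% at an adjusted p under 0.05 and 88.1% by the criterion, which 4.94% of unchanged genes also met. In all, 15 planned and 3 added alternatives were run, among them DESeq2 1.42.0 and limma 3.58.1.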

Additional observations from a re-analysis of the deposited data

How the results depend on the processing

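None of the 9 tested genes met the criterion in the edgeR fit or when any 1 library was left out (0 to 0). Cd79b met it without a filter on low counts (1 of the genes), Ighm with limma-voom (1) and among the 4 libraries with few Xist counts (1), and both with Xist presence as a covariate (2); the last 2 settings were chosen after seeing the data. The sign of Pigr turned with limma-voom (0.088), among those 4 libraries (0.16) and without Nsd2 f/f replicate 3 (0.031). That of Fcgrt turned with scaling by library size only (0.0073), among the 4 libraries (0.031), without Nsd2 Vil-KO replicate 3 (0.24) and without Nsd2 f/f replicate 3 (0.49). Leaving out 1 library at a time, log2 fold changes ranged from -0.41 to 0.031 for Pigr, -0.41 to 1.91 for Igha, -0.41 to 1.77 for Jchain, -0.82 to 1.73 for Igkc, -0.55 to 0.49 for Fcgrt, -1.50 to -0.63 for Ighm, -1.58 to -0.50 for Cd79a, -1.60 to -0.93 for Cd79b and -1.73 to -0.39 for Derl3, and the Pigr contrast from -1.33 to 0.59. Ighm, Cd79a, Cd79b and Derl3 stayed negative in each setting that gave them a value; a minimum of 10 counts in each library left out the last 3 of these. In all, 143 of 159 values of single genes kept their sign and their side of the criterion, 5 newly met it and 11 turned sign. The count of all genes meeting the criterion was 482 (3.29% of those tested). It became 382 (2.61%) by library size only, 861 (3.27%) without a filter, 633 (4.32%) with DESeq2 and 1440 (9.83%) with limma-voom. It was 1646 (10.95%) among the 4 libraries and 1145 (7.82%) with the covariate. With 1 library left out it was 323 (2.14%) to 769 (5.08%), with 769 reached without Nsd2 Vil-KO replicate 2. Against these shares, the count of list genes other than the 10 was 1 of 93, and became 4 by library size only, 3 of 110 without a filter, 2 with DESeq2, 8 (8.60%) with limma-voom, 11 of 100 among the 4 libraries, 8 with the covariate and 1 to 8 with 1 library left out (8 of 100 without Nsd2 f/f replicate 3, where 3.38% of all genes met it). With the replicate number as a block, 303 genes (2.07%) and 2 list genes (Tgfbr1 and Rab3b, 2.15%) met the criterion. Same-numbered libraries deviated from their group means with correlations of 0.32, -0.35 and -0.11, and not every library correlated best with its own number. With 3 libraries a group, these values cannot decide whether the numbers mark pairs, and pairing remains unknown. The causes of these shifts were not tested. Depth limits Mzb1, Derl3, Cd79a and Cd79b, which rest on 0 to 85 counts per library.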
